A study of Mus musculus with 6 samples.

Results

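Hox genes were followed in cultured mouse bone marrow mesenchymal stromal cells (BMSCs) with and without retinoic acid (RA). They were taken as every row of the count tables named Hoxa, Hoxb, Hoxc or Hoxd followed by a number, which gave 34 of the 25722 listed genes. Mouse has 39 such coding genes in the GENCODE M21 annotation, and Hoxb1, Hoxd1, Hoxd3, Hoxd12 and Hoxd13 had no row. Every listed gene had at least 1 count in at least 1 library. The 6 libraries came from wild-type C57BL/6 BMSCs, adherent cells that the study grew from the marrow of tibia and femur and used before the third passage. They were kept in low-glucose DMEM with 20% fetal bovine serum and a ROCK inhibitor under 5% oxygen and 5% CO2, and neither group received a cytokine. The 3 control libraries had the solvent DMSO and the 3 RA libraries had all-trans RA. The sample labels give 1 μM for 48 h while the study's methods give 0.1 μM for 24 h, and the labels speak of 2 biological replicates where 3 libraries per group are present. Since nothing says that the 3 cultures of a group were separate isolations, the spread between them may be technical.

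Hox genes encode transcription factors that bind DNA through a homeodomain, the part encoded by the homeobox. They sit in 4 clusters in the order in which they are used along the body, with low paralogue numbers toward the head and high numbers toward the tail and the tips of the limbs. Genes with the same number in different clusters are paralogues and resemble one another more than their neighbours do. Adult stromal cells keep much of the Hox pattern of the place where they arose. In the embryo RA switches on genes at the low-numbered end of the clusters, in part through response elements in and near the clusters.

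The highest Hox gene in these cultures was Hoxc10, followed by its paralogue Hoxa10, while the Hoxd10 paralogue was nearly silent. Their homeoboxes are shown because the counts part these 3 genes only where their sequences differ. They lie at chr15:102970848-102971027 (plus strand, Hoxc10), chr6:52232554-52232733 (minus strand, Hoxa10) and chr2:74694141-74694320 (plus strand, Hoxd10) of GRCm38, each within 1 coding exon, and capitals mark bases that differ from Hoxc10.
Hoxc10: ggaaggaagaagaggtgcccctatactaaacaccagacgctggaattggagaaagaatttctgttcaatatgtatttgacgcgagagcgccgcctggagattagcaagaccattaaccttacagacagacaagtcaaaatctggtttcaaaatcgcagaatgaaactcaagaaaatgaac
Hoxa10: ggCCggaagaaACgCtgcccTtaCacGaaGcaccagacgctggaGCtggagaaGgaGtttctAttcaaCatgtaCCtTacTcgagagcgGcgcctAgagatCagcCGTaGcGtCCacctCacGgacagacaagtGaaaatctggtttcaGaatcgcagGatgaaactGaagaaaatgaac
Hoxd10: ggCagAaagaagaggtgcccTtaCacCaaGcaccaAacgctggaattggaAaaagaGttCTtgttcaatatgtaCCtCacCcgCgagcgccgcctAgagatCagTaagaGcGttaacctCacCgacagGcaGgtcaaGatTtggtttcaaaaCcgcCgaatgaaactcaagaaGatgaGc
Hoxa10 shared 145 of the 180 homeobox bases with Hoxc10, and Hoxd10 shared 149. The encoded homeodomains were closer than the DNA, with 56 of 60 residues the same in Hoxa10 and 57 of 60 in Hoxd10. Over the whole coding sequence the longest run that Hoxc10 shared without a mismatch with any other Hox gene was 23 bases, with Hoxb9, and for Hoxa10 it was 21 bases, with Hoxb2. Longer runs joined Hoxa6 and Hoxb4 (52 bases) and Hoxa6 and Hoxa7 (47 bases). How the authors treated reads that match more than 1 place is not stated.

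The libraries held between 14737636 and 18511905 counts. By these unscaled totals, 3 counts stood for 0.162 to 0.204 CPM per library. In all other values CPM is the count divided by the scaled library total. A pair of properties of the cultures may bear on the Hox values, which was not tested, and are given here once. One is that the 14 macrophage markers summed to 20900 to 23700 CPM in each library, with Adgre1, the gene of the macrophage antigen F4/80, at 4460 to 6380 CPM, while 13 stromal markers, collagen genes included, summed to 1700 to 4460 CPM. All 14 and all 13 passed the filter on low counts, and lymphoid markers summed to 0.16 CPM or less. Of 8 listed blood stem and progenitor markers, summing to 10.6 to 18.5 CPM, Procr (6.21 to 13.7 CPM), Cd34 (1.54 to 4.56 CPM) and Gata2 (0.634 to 2.23 CPM) passed the filter, and Kit, the receptor of blood progenitors, had 3 counts or fewer in each library. The other is that the main axis of variation (principal component 1 over 1000 highly variable genes, 57.2% of the variance) did not part the treatments. It set control 2, RA 1 and RA 2 (library set 1) apart from control 1, control 3 and RA 3 (library set 2), and neither labels nor methods name a batch. These are bulk libraries, in which fewer cells of a type and less RNA per cell cannot be told apart.

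The Hox genes expressed belonged to Hoxa and Hoxc, with a small group of Hoxb genes and almost nothing of Hoxd. Levels between genes are compared as CPM per kilobase (kb) of the gene's exons. The summed Hox level was 24.3 ± 4.90 CPM per kb (SD, n = 6 libraries). Hoxc genes made 47.7 ± 2.97% of it, Hoxa genes 37.2 ± 3.02%, Hoxb genes 14.3 ± 4.40% and Hoxd genes 0.79 ± 0.383%. The order of Hoxc over Hoxa held in each of the 6 libraries, where the Hoxc share ran from 43% to 51.0% and the Hoxa share from 33.1% to 40.6%. It rested on the scale, since without division by length Hoxa made 42.2% and Hoxc 40.5% of the summed Hox CPM. The whole Hoxd cluster had 47 of the 5880 Hox counts over the 6 libraries.

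Along the body axis, posterior genes (paralogue groups 9 to 13) made 51.9 ± 4.91% of the summed Hox CPM per kb, central genes (groups 4 to 8) 37.3 ± 4.86% and anterior genes (groups 1 to 3) 10.8 ± 0.842% (SD, n = 6 libraries). Paralogue group 10 alone made 28.7 ± 3.82%, from 23.6% to 33.8% in a library. The pattern was uneven within a cluster. In Hoxc, Hoxc10 and Hoxc6 stood above their neighbours, and in Hoxb, Hoxb4 and Hoxb3 were expressed while Hoxb5 to Hoxb9 were not above 0.761 CPM in any library.

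**Figure D1:**
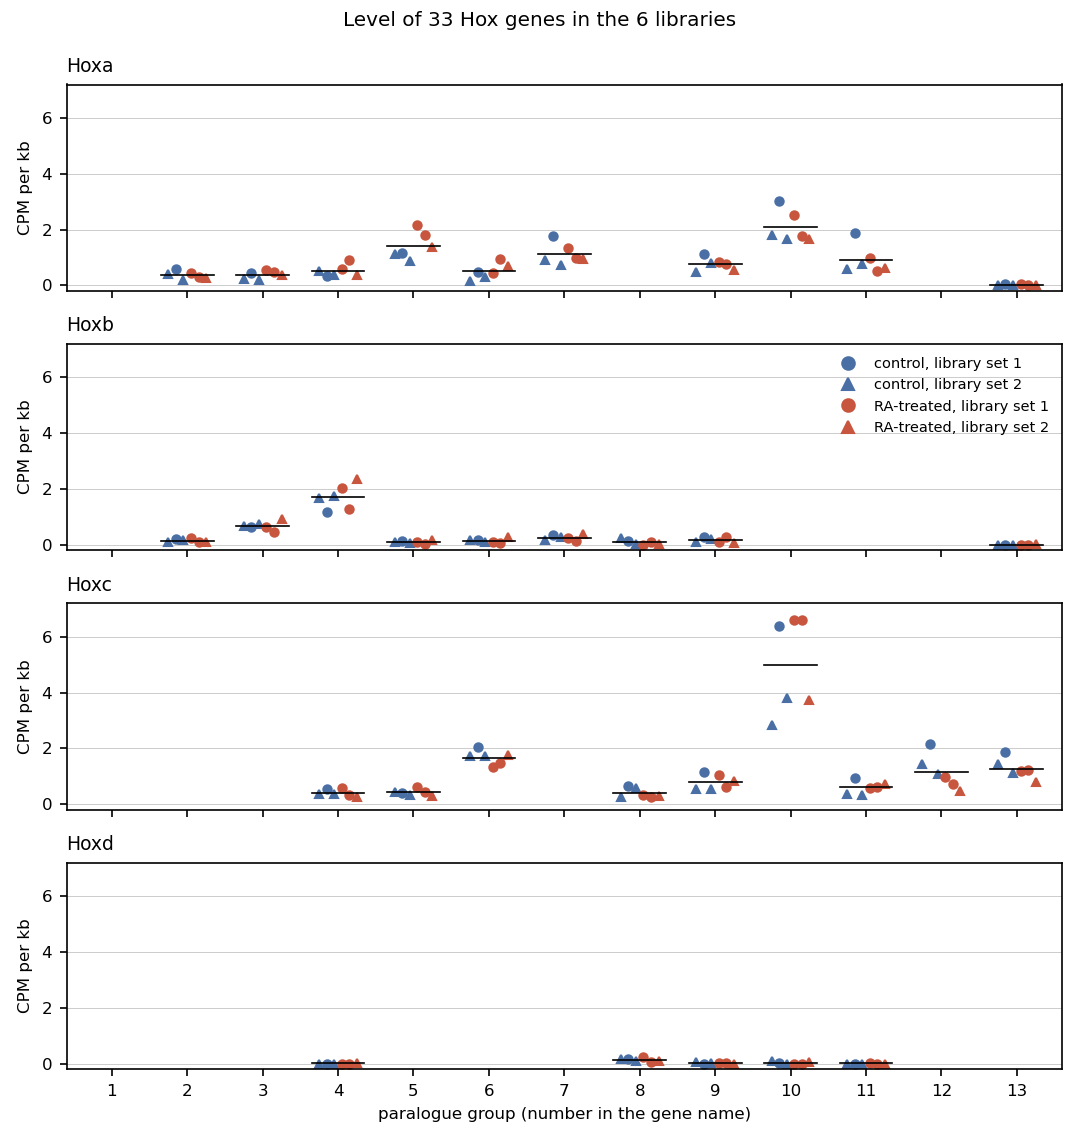
Level of 33 of the listed Hox genes in CPM per kb (linear y axis) by paralogue group (x axis), 1 panel per cluster; points are the 6 libraries, blue for control and red for RA, circles for library set 1 and triangles for library set 2, and the black line is the mean of the 6. Hoxc10 stands highest at a mean of 4.99 CPM per kb, with 3 circles above 3 triangles, and all Hoxd genes lie near 0.

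**Figure D2:**
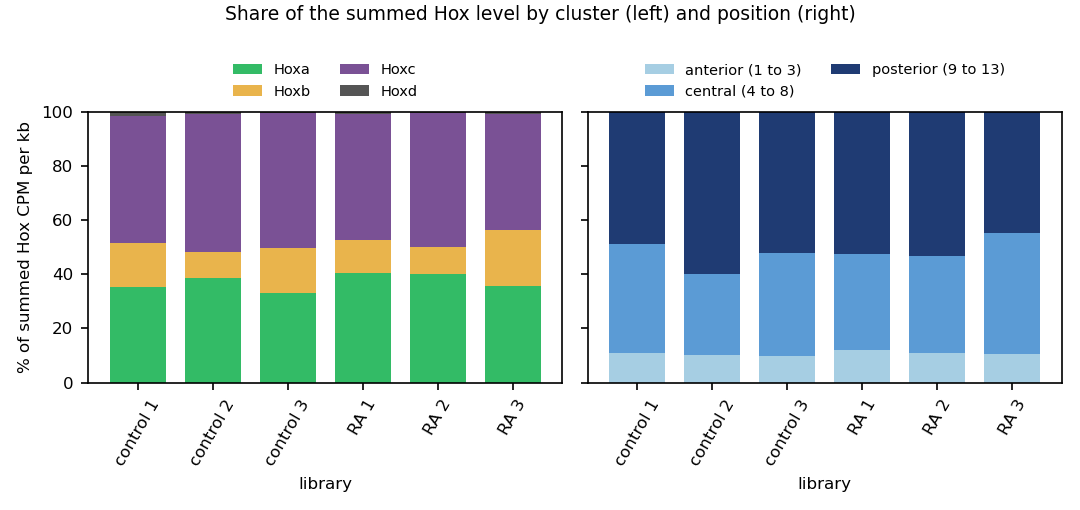
Percent of the summed Hox CPM per kb in each library (bars, y axis from 0 to 100), split by cluster on the left and by position on the right. Hoxc is the largest cluster share in each library, from 43% to 51.0%, and posterior genes run from 44.9% to 59.8%.

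Hoxc10 was first in the order of Hox levels, at 4.99 ± 1.72 CPM per kb (SD, n = 6), and lay above Hoxa10 in 6 of 6 libraries. Its level was moderate within these bulk libraries, with 49.8% of all tested genes below it, which does not give its level in the cells that express it. Hoxa10 followed with 2.08 ± 0.554 CPM per kb, then Hoxb4 with 1.71 ± 0.452, Hoxc6 with 1.67 ± 0.254 and Hoxa5 with 1.42 ± 0.483. From Hoxa10 down to Hoxa5 each gene stood above the next in only 3 or 4 of the 6 libraries, so that the order of these neighbours did not exceed their spread. The 5th to 8th places, Hoxa5, Hoxc13, Hoxc12 and Hoxa7, spanned means of 1.42 to 1.12 CPM per kb. These places pool both treatments. In the 3 control libraries alone, Hoxc10 (4.34 CPM per kb) and Hoxa10 (2.17) were again first and second, followed by Hoxc6 (1.83), Hoxc12 (1.55), Hoxb4 (1.53) and Hoxc13 (1.48), and Hoxa5 (1.05) was in the 9th place.

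RA treatment moved no Hox gene past the threshold. Of the 34 genes, 20 had enough counts to be tested (9 Hoxa, 2 Hoxb and 9 Hoxc genes), and none was called up or down at a fold of 1.5 or more and an adjusted p under 0.05 (edgeR's quasi-likelihood F test over 13842 genes, Benjamini-Hochberg). In the whole table the same rule called 0.0361% of genes up and 0.00722% down, so that a count of 0 among 20 does not differ from the background. The smallest adjusted p of a Hox gene was 0.795, and it was 1 with DESeq2. At an unadjusted p under 0.05, Hoxa5 was higher and Hoxc12 was lower after RA treatment, against 2.89% and 2.36% of all tested genes. The same 2 genes had an unadjusted p under 0.05 in DESeq2. They were also the only 2 Hox genes tested whose RA libraries did not overlap the controls, Hoxa5 above and Hoxc12 below them, a state that 5.71% and 6.87% of all tested genes showed.

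That the cultures had responded to RA is seen from genes outside the clusters. Cyp26b1, which encodes an RA-degrading enzyme, rose from 5.20 ± 0.670 to 107 ± 18.4 CPM (SD, n = 3 each), a log2 fold change of 4.35 (adjusted p = 0.00207, edgeR). Rarb, an RA receptor gene, went from 0.370 to 5.84 CPM on average (log2 fold change 3.90, adjusted p = 0.156), and Crabp2, an RA-binding protein gene, had a log2 fold change of 2.31 (adjusted p = 0.294). Of the 6 genes of that list, 5 were tested, 5 had a positive and 0 a negative log2 fold change, and 1 was called. With DESeq2, 4 of the 6 had an adjusted p under 0.05, namely Cyp26b1, Rarb (adjusted p = 1.37e-09), Crabp2 (0.000583) and Cyp26a1 (0.000594), and 3 were called by edgeR in the model with a term for library set.

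Of the 20 Hox genes tested, 9 had a positive and 11 a negative log2 fold change, with a median of -0.03, beside 47.3% positive and a median of -0.02 over all tested genes. The Hox median turned positive without control 2 (0.20), RA 2 (0.10) or RA 3 (0.05), was -0.11 at the lowest with another library left out, and was -0.13 in the model with a term for library set. The values ran from -1.09 to 0.76. The 95% interval held 0 for 18 of the 20 genes, and its bounds reached from -2.07 to 1.6 on the log2 scale. The interval lay within 1 on the log2 scale in both directions for only 5 genes, so that a 2-fold change was not excluded by the interval for the rest.

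**Figure D3:**
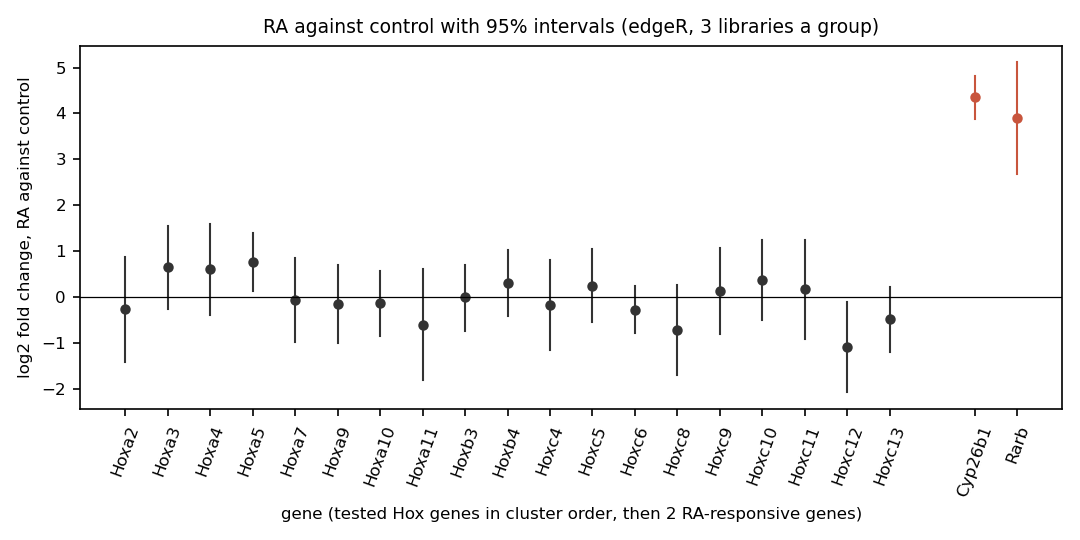
Log2 fold change of RA against control (y axis, dots) with 95% intervals (lines, edgeR over 3 control and 3 RA libraries) for 19 tested Hox genes in cluster order and for Cyp26b1 and Rarb at the right. The Hox values lie between -1.09 and 0.76, with 17 intervals crossing 0, while Cyp26b1 stands at 4.35.

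Among the anterior genes, Hoxa3, needed for the thymus and parathyroid, had 1.40, 2.71 and 1.17 CPM in control libraries 1 to 3 and 3.34, 2.85 and 2.18 CPM in RA libraries 1 to 3. Its RA values lay above the control of the same set in both sets, while control 2 exceeded RA 3, and the log2 fold change was 0.65 (interval -0.26 to 1.56), or 0.43 without control 3 and 1.13 without control 2. Hoxb3, which acts in the hindbrain and thyroid, had 2.80, 2.71 and 3.16 CPM in control and 2.72, 1.97 and 3.96 CPM in RA libraries, the RA libraries lying on both sides of the controls (log2 fold change -0.01). Of the Hoxb3 exon length, 52.9% overlaps Hoxb3os on the other strand, and whether the counting used strand is not stated. Hoxb3os itself had 2 counts or fewer in each library. Hoxa2, a gene of the branchial arches, was tested at 0.344 to 1.06 CPM with a log2 fold change of -0.27. Exons of other annotated genes, Hoxaas2 among them, overlap 27.1% of the Hoxa3 exon length, and such exons overlap 15% of that of Hoxa2.

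Of the central genes, Hoxa5, which patterns the neck and upper thorax and the lung, showed the highest Hox log2 fold change. It had 2.10, 2.18 and 1.65 CPM in control and 4.06, 3.42 and 2.59 CPM in RA libraries, that is 1.98 ± 0.286 against 3.36 ± 0.735 CPM (SD, n = 3 each). All RA libraries lay above all controls, with the lowest of them, RA 3, at 2.59 and the highest control at 2.18 CPM. The log2 fold change was 0.76 ± 0.27 (SE), a 1.70-fold difference with an interval of 0.13 to 1.40, an unadjusted p of 0.0254 and an adjusted p of 0.795 in edgeR. These values rest on 24 to 41 counts in a control and 38 to 73 in an RA library. The exact 95% Poisson intervals of the highest control count, 29.4 to 55.6, and of the lowest RA count, 26.9 to 52.2, overlap, and such intervals cover counting error only. The difference of mean log2 CPM was 0.74 within library set 1 and 0.45 within set 2, and it stayed between 0.63 and 0.92 when 1 library was left out. No other annotated exon overlaps Hoxa5.

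The RA level of the other central genes was not on one side of the controls. Hoxb4, known for expanding blood stem cells when forced on, had 4.34, 2.98 and 4.47 CPM in control and 5.23, 3.30 and 6.07 CPM in RA libraries. Within each library set its RA libraries lay above the controls, with differences of 0.46 and 0.45 on the log2 scale, but over both sets the groups overlapped and the log2 fold change was 0.31 (interval -0.41 to 1.03), or 0.12 without RA 3, 0.15 without control 2 and 0.53 without RA 2. Hoxc4 had 0.910, 1.38 and 0.963 CPM in control and 1.45, 0.824 and 0.614 CPM in RA libraries (log2 fold change -0.17). Hoxc5 had 1.33, 1.22 and 1.03 CPM in control and 1.89, 1.39 and 0.955 CPM in RA libraries (log2 fold change 0.25, but 0.000332 without RA 1 and 0.46 without RA 3). For both genes RA 1 was the highest and RA 3 the lowest of the 6 libraries.

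Hoxc6 and Hoxc8 are genes of the thoracic level. Hoxc6 was the steadiest of the higher Hox genes, with 4.13, 4.95 and 4.13 CPM in control and 3.17, 3.55 and 4.23 CPM in RA libraries (log2 fold change -0.27, interval -0.78 to 0.24, -0.16 without RA 1 and -0.165 without control 2). Only RA 3 reached the controls. Hoxc8 had 0.700, 1.81 and 1.65 CPM in control and 0.945, 0.761 and 0.819 CPM in RA libraries, so that control 1, with 10 counts, was below all RA libraries and the other 2 controls above them (log2 fold change -0.72, interval -1.70 to 0.26, -0.46 without control 2). Hoxa7 had 2.66, 5.11 and 2.06 CPM in control and 3.89, 2.85 and 2.73 CPM in RA libraries. Control 2 held the highest Hoxa7 value, and the log2 fold change of -0.06 became 0.43 without that library. Hoxa4 was tested at 0.532 to 1.46 CPM with a log2 fold change of 0.61 (interval -0.39 to 1.6). Exons of other annotated genes overlap 20.4% of the Hoxa7 exon length and 16% of that of Hoxa4.

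The tested posterior Hoxa genes had a high value in control 2, a feature not particular to them. Hoxa2, Hoxa7, Hoxc6, Hoxc8, Hoxc9, Hoxc11, Hoxc12 and Hoxc13 also had their highest value there. The summed Hox level was highest there too, at 31.6 CPM per kb. Hoxa9, a gene of blood progenitors and leukaemia, had 2.66, 6.22 and 4.40 CPM in control and 4.78, 4.31 and 3 CPM in RA libraries. Hoxa10, which acts in the lumbar skeleton and the uterus, had 5.95, 9.84 and 5.50 CPM in control and 8.23, 5.83 and 5.46 CPM in RA libraries. Hoxa11, a gene of the middle limb segment and the kidney, had 1.33, 4.31 and 1.79 CPM in control and 2.28, 1.20 and 1.43 CPM in RA libraries. The highest value of each was in control 2, and the groups overlapped. Their log2 fold changes were -0.14, -0.13 and -0.60 in that order, and without control 2 they were 0.21, 0.20 and 0.09. Of the Hoxa11 exon length 35% overlaps Hoxa11os, which had 3 to 10 counts per library. Hoxa13, a gene of the limb tip and hindgut, had 0 to 3 counts per library and was not tested.

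Among the posterior Hoxc genes, Hoxc10, a gene of the lumbar level and the hindlimb, had 5.39, 12.2 and 7.29 CPM in control and 12.6, 12.6 and 7.10 CPM in RA libraries. Of its exon length 8.7% overlaps exons of Hoxc5 on the same strand, and how such reads were assigned is not stated. The 3 libraries of set 1 held 12.2 to 12.6 CPM and the 3 of set 2 held 5.39 to 7.29 CPM, whatever the treatment. Within the sets the RA-control difference was 0.05 and 0.17 on the log2 scale, and the log2 fold change over all libraries was 0.37 (interval -0.50 to 1.25), with 0.14 without control 1 and 0.78 without control 2 as the extremes when 1 library was left out. Hoxc9 had 1.33, 2.77 and 1.31 CPM in control and 2.5, 1.52 and 1.98 CPM in RA libraries. Hoxc11 had 0.770, 1.91 and 0.688 CPM in control and 1.17, 1.27 and 1.43 CPM in RA libraries. For both, control 2 was the highest library and the other controls lay below every RA library, with log2 fold changes of 0.14 and 0.17. Without control 1 they were -0.03 and -0.035, and without control 2 they were 0.61 and 0.83.

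The last genes of the Hoxc cluster had lower means in RA libraries than in controls. Hoxc12 had 1.47, 2.23 and 1.10 CPM in control and 1.00, 0.761 and 0.478 CPM in RA libraries, that is 1.6 ± 0.578 against 0.746 ± 0.262 CPM (SD, n = 3 each). All RA libraries lay below all controls, RA 1 and control 3 being nearly level. The log2 fold change was -1.09 ± 0.41 (SE), a ratio of 0.469 with an interval of -2.07 to -0.11 on the log2 scale, an unadjusted p of 0.0339 and an adjusted p of 0.795 in edgeR. The counts behind it were 21, 42 and 16 in control and 18, 12 and 7 in RA libraries, and the exact 95% Poisson interval of control 3, 9.15 to 26.0 counts, holds the count of RA 1. The difference was -1.24 within set 1 and -1.21 within set 2, and it ran from -1.34 to -0.75 when 1 library was left out.

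Hoxc13, the neighbour of Hoxc12 and a regulator of hair and nail keratin genes, had 3.57, 4.63 and 2.75 CPM in control and 2.95, 2.98 and 1.91 CPM in RA libraries. Control 3 fell within the RA range, and the log2 fold change was -0.48 (interval -1.20 to 0.23, unadjusted p = 0.153 in edgeR), or -0.26 without control 2 and -0.31 without RA 3. Within the sets the difference was -0.62 and -0.68. In a model with a term for library set, Hoxc12 had a log2 fold change of -1.36 (unadjusted p = 0.003, adjusted p = 0.0987), Hoxc13 one of -0.68 (unadjusted p = 0.0144, adjusted p = 0.215) and Hoxa5 one of 0.63 (unadjusted p = 0.0308, adjusted p = 0.288). These were the only Hox genes with an unadjusted p under 0.05 in that fit, 1 higher and 2 lower, where 6.7% of all tested genes were higher and 8.44% lower. No Hox gene was called there, against 1.54% of all tested genes. No other annotated exon overlaps Hoxc12 or Hoxc13.

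**Figure D4:**
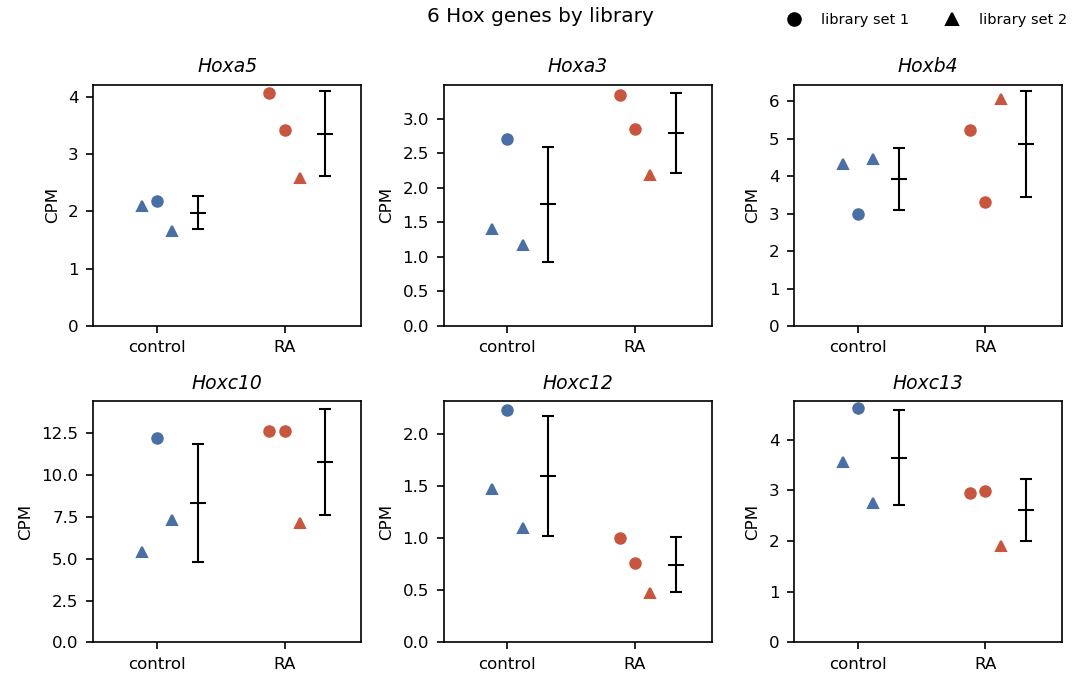
CPM of 6 Hox genes in each library (y axes start at 0 and differ between panels), control in blue and RA in red, circles for library set 1 and triangles for library set 2; the bar beside each group is the mean with its SD (n = 3). Hoxa5 lies higher and Hoxc12 lower in all 3 RA libraries, while Hoxc10 parts the circles (12.2 to 12.6 CPM) from the triangles (5.39 to 7.29 CPM).

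Values are also given by position in the cluster, with a division that was chosen after they were seen and has no test. Of the 9 tested genes of paralogue groups 1 to 5, 6 had a positive and 3 a negative log2 fold change (median 0.31). Of the 11 tested genes of groups 6 to 13, 3 were positive and 8 negative (median -0.14). The medians were 0.18 and -0.60 within library set 1. Within set 2 they were -0.05 and -0.07, with 4 positive and 5 negative genes in groups 1 to 5 and 5 positive and 6 negative in groups 6 to 13, so that the direction did not part by position there. In the model that holds the library set they were 0.11 and -0.29.

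Promoter sequence was looked at for exact copies of the motif AGGTCA, a core to which RA receptors bind in pairs. RefSeq promoters of GRCm38.p6, each 300 bases from 250 before to 50 after the start, were held for 22 Hox genes in 24 windows. AGGTCA on either strand occurred in 7 of the 24 windows, those of Hoxa5, Hoxb4, Hoxc4, Hoxd3, Hoxd4, Hoxd8 and Hoxd10, and in 16.3% of all 32851 promoters. A direct repeat of AGGTCA, whose copies each also count as a match, with 1, 2 or 5 bases between the copies occurred in 0 of the 24 windows and in 0.0396%, 0.00913% and 0.00913% of all promoters. At such low shares 0 of 24 windows says nothing about Hox promoters. Variants of the motif were not searched, so RA response elements with other bases would have been missed. The windows of Hoxa5 (chr6:52204538-52204837, minus strand), the Hox gene with the highest log2 fold change, and of Hoxb4 (chr11:96318017-96318316, plus strand), the highest Hoxb gene, are shown with the motif in capitals.
Hoxa5: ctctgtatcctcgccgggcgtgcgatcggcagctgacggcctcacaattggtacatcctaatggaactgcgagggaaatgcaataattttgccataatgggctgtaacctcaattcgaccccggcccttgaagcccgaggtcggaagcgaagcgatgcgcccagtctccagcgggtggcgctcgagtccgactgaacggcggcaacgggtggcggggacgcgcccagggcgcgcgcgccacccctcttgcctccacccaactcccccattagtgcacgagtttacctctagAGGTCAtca
Hoxb4: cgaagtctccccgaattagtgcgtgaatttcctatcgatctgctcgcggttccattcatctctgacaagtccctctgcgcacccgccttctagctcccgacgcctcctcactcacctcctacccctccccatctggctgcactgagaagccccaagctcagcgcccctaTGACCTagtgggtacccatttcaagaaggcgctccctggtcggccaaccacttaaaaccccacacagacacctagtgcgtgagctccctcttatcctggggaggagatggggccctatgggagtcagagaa
In Hoxa5 the match lies among the last 50 bases, past the start of the transcript, and in Hoxb4 it lies on the minus strand, before the start. The motif was thus held by the Hox gene whose RA and control libraries did not overlap in the upward direction, by genes without such a difference and by Hoxd genes near 0. Windows of Hoxc10, Hoxc12 and Hoxc13 were not analysed here.

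Hoxc10 differed more between the library sets than between the treatments. As the sets were defined from these same data, their values are a description. The summed Hox level was 24.8 to 31.6 CPM per kb in set 1 and 19.9 to 21.1 in set 2. Of 19 tested Hox genes, Hoxa3, Hoxa7 and Hoxc10 were higher in all set 1 libraries than in any of set 2, Hoxb3 was lower, and 15 overlapped, where 23.4% of all tested genes lay above and 24.4% below. Hoxc10 had 12.5 CPM on average in set 1 and 6.59 in set 2, a ratio of 1.89, and Hoxa3 had 2.97 and 1.58 CPM, a ratio of 1.87. Hoxb3 stood at 2.47 and 3.31 CPM (ratio 0.746) and Hoxb4 at 3.83 and 4.96 CPM (ratio 0.773), so that the 2 tested Hoxb genes lay opposite to the Hoxa genes. The share of Hoxb in the summed Hox level was 9.69% to 12.2% in set 1 and 16.3% to 20.8% in set 2. Sums of cell type markers moved too. The stromal list summed to 1.55 times as much in set 1 on average, with overlapping ranges of 2230 to 4460 and 1700 to 2560 CPM, and the macrophage list to 0.957 times as much. The lymphoid list overlapped at 0.16 CPM or less, and the other 4 lists did not overlap between the sets. Blood stem and progenitor markers summed to 15.7 to 18.5 CPM in set 1 and 10.6 to 12.6 CPM in set 2, and limb position genes to 126 to 188 and 81.5 to 112 CPM. Endothelial markers summed to 6.81 to 11.4 CPM in set 1 and 16 to 17.2 CPM in set 2, and neutrophil and erythroid markers to 1.52 to 2.33 and 2.59 to 2.8 CPM. Not every gene moved with the sum of its list. Pecam1, the largest part of the endothelial sum, was lower in all set 1 libraries, as was Tek. Emcn was higher there, and Cdh5 and Kdr overlapped. Procr, the largest part of the blood stem and progenitor sum, was higher in all set 1 libraries, while Flt3 and Myb were lower and the rest overlapped. S100a9 and Klf1 were lower in all set 1 libraries, and S100a8 overlapped. The part of these markers in the Hox values was not tested.

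**Figure D5:**
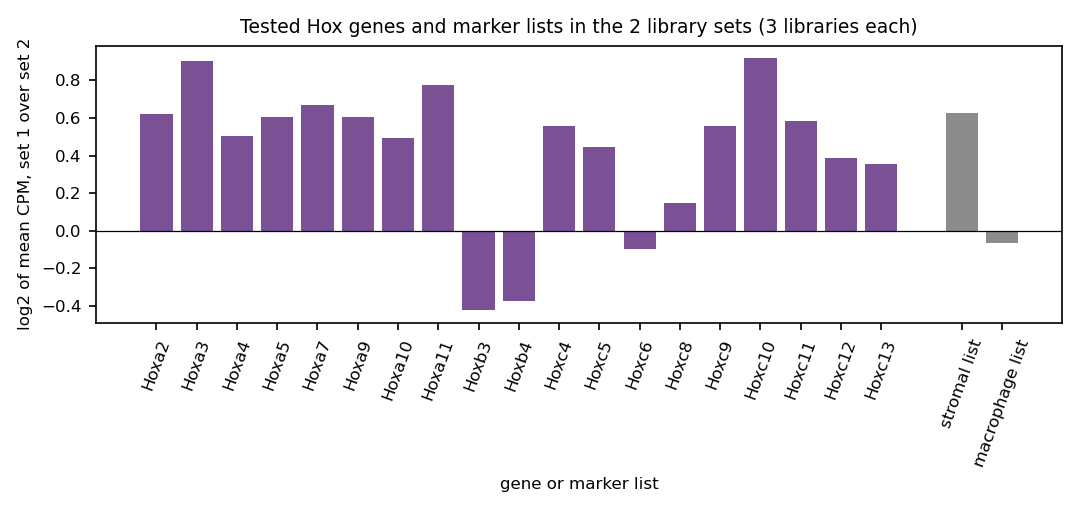
Log2 ratio of mean CPM in library set 1 over library set 2 (bars from 0, y axis) for 19 tested Hox genes in cluster order and, in grey, for the summed stromal and macrophage marker lists. All 8 Hoxa bars are above 0 and both Hoxb bars below it, with ratios of 1.87 for Hoxa3 and 0.746 for Hoxb3.

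Genes that act with or on Hox genes were read from lists. None of them was called after RA treatment (edgeR, adjusted p under 0.05 and 1.5-fold), where 0.0361% of all tested genes were called up and 0.00722% down. The values named below stand beside these shares over all tested genes. RA libraries lay above every control in 5.71% and below every control in 6.87%. An unadjusted p under 0.05 in edgeR was found upward in 2.89% and downward in 2.36%. Of the 9 Hox cofactors, homeodomain proteins that bind DNA together with Hox proteins, 8 were tested, 5 with a positive and 3 with a negative log2 fold change. Meis2 had 2.31, 4.89 and 2.75 CPM in control and 6.78, 7.74 and 4.84 CPM in RA libraries, RA 3 lying just under control 2 (log2 fold change 0.95, unadjusted p = 0.0296, adjusted p = 0.795). Pbx4 had 0.910, 0.691 and 0.963 CPM in control and 0.389, 0.444 and 0.409 CPM in RA libraries, without overlap (log2 fold change -1.03, unadjusted p = 0.0174, adjusted p = 0.795). Meis3 had a log2 fold change of -0.30. Pbx2 was the cofactor with the most counts, at 60.5 to 94.7 CPM.

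Polycomb genes, whose products keep silent Hox genes silent, were all tested, with 19 of 31 positive and 12 negative. Yaf2, a component of a Polycomb complex, had 22.8, 22.6 and 22.3 CPM in control and 29.8, 31.8 and 28.7 CPM in RA libraries, without overlap (log2 fold change 0.42, unadjusted p = 0.00965, adjusted p = 0.645), and Phf1 and Mtf2 had log2 fold changes of -0.53 and 0.33. MLL complexes and H3K27 demethylases counter Polycomb. Of the 17 genes of their list, 8 were positive and 9 negative. The list also held Dot1l, Mllt1, Mllt3, Mllt10, Aff1 and Aff4, which belong to neither group. The demethylase gene Kdm6b had 17.7, 25.4 and 17.2 CPM in control and 15.7, 11.7 and 14.5 CPM in RA libraries (log2 fold change -0.52, unadjusted p = 0.0447, adjusted p = 0.795), and Men1, the gene of an MLL partner, 55.5, 49.3 and 50 CPM against 43.9, 41.6 and 44.1 CPM (log2 fold change -0.26, adjusted p = 0.795). In both genes all RA libraries lay below all controls, a state of 6.87% of all tested genes, and Kmt2b had a log2 fold change of -0.32.

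Of 8 factors known to act upstream of Hox genes, 5 were tested, 2 positive and 3 negative, and Cdx1, Cdx2 and Cdx4 had no row. Egr2, Ctcf and Yy1, the 3 with the smallest p, had log2 fold changes of -0.58, 0.16 and -0.13. Limb genes accompany Hox genes as marks of place. The hindlimb gene Pitx1 was present, with 4.69, 6.33 and 3.99 CPM in control and 3.95, 2.09 and 3.27 CPM in RA libraries (log2 fold change -0.69, unadjusted p = 0.0647, adjusted p = 0.795), and RA 1 lay just under control 3. The forelimb gene Tbx5 had 0 or 1 count in each library, and Tbx4 had no row. The mesenchymal gene Prrx1 stood at 43.1 to 104 CPM and Shox2 at 9.89 to 21.3 CPM. Of the 15 limb genes 8 were tested, 2 positive and 6 negative, with log2 fold changes of 1.13 for Msx2 and -0.57 for Prrx2 among the 3 with the smallest p.

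The 14 Hox genes that were not tested had 1 to 52 counts in all over the 6 libraries and no more than 15 in any library. They were Hoxa6 and Hoxa13, the 7 other Hoxb genes and all 5 listed Hoxd genes. Hoxb13, Hoxd4 and Hoxd11 had 1 count in all, which is at the limit of what these depths can show. Hoxd8, with 3 to 11 counts per library, was the highest Hoxd gene, and Hoxd10 had 2, 1 and 0 counts in control and 0, 0 and 1 in RA libraries. Hoxa6 had 2, 8 and 4 counts in control and 7, 13 and 9 in RA libraries. Noncoding genes of the clusters were also low, as was Evx2, a coding homeobox gene at the end of Hoxd. Hoxaas2, an antisense gene overlapping Hoxa3 exons, was the only one tested, at 0.490 to 1.08 CPM (log2 fold change 0.39). Evx2 and the other 7 noncoding genes had at most 12 counts in a library, with Hotair, which lies in Hoxc, at 0 to 3 counts.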

How the data were processed

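RNA of 6 BMSC cultures was sequenced on an Illumina HiSeq instrument per the labels. The deposited files hold whole-number read counts for each gene, in a separate table for each library and without scaling. The authors aligned reads with Bowtie2 2.2.3 to mm10 per the submitters' processing notes. The counting program, annotation and strand setting are not given in the sources used here. Samples were grouped by their treatment labels. The members and the gene lists were chosen with earlier results of these data known.

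Counts were analysed in R 4.3.3 with edgeR 4.0.16 (TMM scaling, filterByExpr, quasi-likelihood F test of 3 RA against 3 control libraries, Benjamini-Hochberg adjustment over 13842 genes). Calls needed an adjusted p under 0.05 and 1.5-fold. CPM are TMM-scaled. Exon lengths and coordinates came from GENCODE M21 (GRCm38, the same build as mm10), in which all 25722 identifiers were found, and promoters from RefSeq. Differences within a library set used log2 CPM with a prior count of 2. Totals of 14737636 to 18511905 counts per library leave most Hox genes with fewer than 100 counts, and counting intervals cover counting error only, since PCR copies are not independent molecules.

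Hox genes with a mean of at least 1 CPM are given by library, and so is any with an unadjusted p under 0.05 or groups without overlap. Of each list of regulators, limb genes and RA-responsive genes, called genes and the 3 with the smallest p are named. A Hox gene enters the sums and counts over all Hox genes but is otherwise not reported here. Marker lists of macrophage, stromal, blood progenitor, endothelial, lymphoid, neutrophil and erythroid cells are given as sums. Alternatives were DESeq2 1.42.0, the likelihood ratio test, other scalings, filters and thresholds, the replicate number as a block, the library set as a covariate and leaving out each library.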

Additional observations from a re-analysis of the deposited data

How the results depend on the processing

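No Hox gene was called with DESeq2, the likelihood ratio test, either other scaling, either other filter, the replicate block, a library set covariate, no fold threshold or any 1 library left out. With the unadjusted p in place of the adjusted, 2 of the 20 tested Hox genes (Hoxa5 and Hoxc12) and 2 regulators (Meis2 and Pbx4) passed with 1.5-fold. By the same rule 491 of all 13842 tested genes passed. The smallest adjusted p of a Hox gene was 0.729 with the likelihood ratio test. The replicate numbers did not pair the libraries, with correlations of their deviations of -0.51, 0.343 and 0.572. With the replicate block the smallest adjusted p was 0.714, and Hoxa7 reversed to 0.0225. Without a filter all 34 Hox genes were tested. Over all genes tested, 6 were called, and 122 with DESeq2, 134 with the likelihood ratio test, 20 without a filter, 213 with a library set covariate, 491 by unadjusted p and 0 to 6 with 1 library left out. The cause was not tested. Log2 fold changes near 0 reversed. Hoxb3 was 0.0309 with library size scaling, 0.013 with upper quartile scaling, 0.00109 with at least 10 counts in every library and 0.11 with a library set covariate. With 1 library left out, the log2 fold change ran from -0.30 to 0.43 for Hoxa7, -0.40 to 0.21 for Hoxa9, -0.31 to 0.20 for Hoxa10, -0.90 to 0.0908 for Hoxa11, -0.30 to 0.20 for Hoxb3, -0.57 to 0.0647 for Hoxc4, -0.0433 to 0.61 for Hoxc9 and -0.0789 to 0.83 for Hoxc11. The sign turned without control 2 for Hoxa7, Hoxa9, Hoxa10, Hoxa11 and Hoxc4, without RA 3 for Hoxa7, Hoxa9 and Hoxc4, without RA 2 for Hoxa7 and Hoxb3, without RA 1 for Hoxb3 and Hoxc9, without control 1 for Hoxc9 and Hoxc11, and without control 3 for Hoxb3, Hoxc9 and Hoxc11. For 15 of the 20 tested Hox genes the 95% interval reached past a 2-fold change. Hoxc10, with 941 counts, had an SE of 0.366, and of 0.159 with a library set covariate.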
